A study of Mus musculus with 4 samples.

Results

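Outside genes, most of the mouse genome in the hippocampus is heavily methylated, and a small set of intergenic regions of middling length is not. These low intergenic regions were taken from a table of methylation levels per genomic region by annotation, length and level. They lie on an autosome, carry no gene name in the deposited annotation, and are 1000 to 5000 bp long. Each had a value in all 4 libraries, with a mean over those libraries of 10% to under 50%. There were 9540 of them among 849172 regions in all, and they covered 16.5 Mb. They made up 3.21% of the 296986 intergenic autosomal regions of that length. The other intergenic regions of that length fell almost entirely at 50% or more (287021 regions), and 425 lay under 10%.

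The levels came from whole-genome bisulfite sequencing of CA1, the output field of the hippocampus and a seat of memory formation, in C57B6/J mice aged 117 days. One group of 2 libraries is labelled Tet2+f_Camk2aCre and is called the Cre group here. The other group of 2 libraries carries the label Tet2+f alone and is called the control group, so both groups share Tet2+f. Tet2 encodes a dioxygenase that oxidises 5-methylcytosine to 5-hydroxymethylcytosine, and the series text describes reduced Tet2 dosage in glutamatergic cells. Cre is read here as driven by the Camk2a promoter, which is active in excitatory forebrain neurons, whereas CA1 tissue also holds interneurons, glia and vascular cells. A level is therefore an average over all cells of the tissue. No group carries Cre without Tet2+f, so an effect of Cre or its transgene and an effect of reduced Tet2 cannot be told apart. Nothing in the labels ties the libraries to separate mice, so the spread behind each p-value may be technical. Without read counts in the table, the depth of each level is unknown.

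In mammals most CpG dinucleotides are methylated, and CpG-rich promoters of active and poised genes are kept free of methylation. Away from promoters, enhancers bound by transcription factors commonly show intermediate methylation, and so do the shores that flank unmethylated CpG islands. TET enzymes are known to act at such enhancers. Bisulfite sequencing reads 5-methylcytosine and 5-hydroxymethylcytosine alike, and neuronal enhancers are rich in the latter, so a level here is the sum of both marks.

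The name of the set calls these regions CpG-poor. CpG content of whole regions was not analysed here, but 392 promoter windows of RefSeq, from 250 bp before to 50 bp after a gene start, lay entirely inside 340 of the regions. They belong to 343 genes, 64 protein-coding and 279 for long noncoding RNA. These windows held a median of 5 CpGs (quartiles 3 and 7). The median was 15 in windows inside regions shorter than 1000 bp with a level under 10%, the class that holds CpG islands, and 3 in windows inside regions of 1000 to 5000 bp at 50% or more. By this measure, sequence at gene starts inside the low intergenic regions was poor in CpGs beside CpG islands. Low regions without such a window, most of the set, were not covered. The windows were richer than those inside methylated regions of the same length range, but the low regions were also shorter, and the count fell with length. Over regions of any level, the median was 6 at 1000 to under 1500 bp, 4 at 1500 to under 2000 bp and 3 at 2000 to under 5000 bp. Whether the low regions were richer at equal length was not tested. At least 10 CpGs were found in 47 of the 392 windows. Within the set, the median fell from 8 CpGs in regions at 10% to under 20% (49 windows) to 6 at 20% to under 30% (62 windows), and it was 5 in both higher classes (128 and 153 windows).

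The stretches before 8 of these gene starts show the CpGs, in capitals, of sequence inside low regions. A level is known for the whole region only and not for the stretch. Of the 8 stretches, 7 hold 6 or fewer CpGs. Each is 250 bases, 5′ to 3′ along the gene's strand, from RefSeq. They were picked with their values known. They lie upstream of starts of 6 genes of neuronal adhesion and signalling: the adhesion proteins Nlgn1, Cdh9 and Iglon5, the axon guidance receptor Robo2, the synaptic vesicle protein Rph3a and the potassium channel Kcnk2. Gm13067 and Gm26553 are long noncoding RNA genes whose regions are among the larger group differences described later.
Nlgn1 upstream, GRCm38.p6 chr3:26153987-26154236, minus strand: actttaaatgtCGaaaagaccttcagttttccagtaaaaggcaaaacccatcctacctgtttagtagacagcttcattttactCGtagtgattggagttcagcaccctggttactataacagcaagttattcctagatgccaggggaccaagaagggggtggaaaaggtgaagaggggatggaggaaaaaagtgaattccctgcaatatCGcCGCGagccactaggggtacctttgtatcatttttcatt
Cdh9 upstream, GRCm38.p6 chr15:16728665-16728914, plus strand: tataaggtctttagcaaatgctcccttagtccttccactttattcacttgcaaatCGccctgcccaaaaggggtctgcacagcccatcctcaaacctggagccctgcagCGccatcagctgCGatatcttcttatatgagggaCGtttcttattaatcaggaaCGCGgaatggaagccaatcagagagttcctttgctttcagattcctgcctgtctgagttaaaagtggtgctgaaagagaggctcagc
Robo2 upstream, GRCm38.p6 chr16:75092771-75093020, minus strand: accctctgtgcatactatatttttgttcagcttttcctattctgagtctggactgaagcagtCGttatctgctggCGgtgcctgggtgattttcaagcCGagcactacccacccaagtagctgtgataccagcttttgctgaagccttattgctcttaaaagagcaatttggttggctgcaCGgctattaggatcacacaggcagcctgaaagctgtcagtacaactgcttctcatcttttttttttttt
Rph3a upstream, GRCm38.p6 chr5:121010093-121010342, minus strand: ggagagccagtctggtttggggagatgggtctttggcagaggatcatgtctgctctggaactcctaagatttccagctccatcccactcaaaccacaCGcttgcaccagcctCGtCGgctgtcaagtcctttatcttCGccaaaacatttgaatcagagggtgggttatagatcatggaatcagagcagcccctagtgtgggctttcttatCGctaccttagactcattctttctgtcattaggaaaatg
Iglon5 upstream, GRCm38.p6 chr7:43490212-43490461, minus strand: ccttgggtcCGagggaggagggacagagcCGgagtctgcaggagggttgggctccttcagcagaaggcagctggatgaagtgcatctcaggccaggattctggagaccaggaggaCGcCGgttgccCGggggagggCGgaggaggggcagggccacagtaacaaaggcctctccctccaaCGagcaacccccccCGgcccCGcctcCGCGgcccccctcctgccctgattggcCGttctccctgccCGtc
Kcnk2 upstream, GRCm38.p6 chr1:189344193-189344442, minus strand: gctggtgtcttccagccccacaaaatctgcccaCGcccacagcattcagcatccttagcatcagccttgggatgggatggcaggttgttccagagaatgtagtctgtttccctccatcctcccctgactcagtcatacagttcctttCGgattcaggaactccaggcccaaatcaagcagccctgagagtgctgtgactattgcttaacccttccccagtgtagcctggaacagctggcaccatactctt
Gm13067 upstream, GRCm38.p6 chr4:150029155-150029404, plus strand: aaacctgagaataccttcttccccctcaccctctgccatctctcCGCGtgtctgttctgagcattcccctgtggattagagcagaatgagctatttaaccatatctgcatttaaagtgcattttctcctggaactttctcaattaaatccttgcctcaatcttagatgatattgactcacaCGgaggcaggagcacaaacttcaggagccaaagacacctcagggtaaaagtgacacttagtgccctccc
Gm26553 upstream, GRCm38.p6 chr3:96352207-96352456, minus strand: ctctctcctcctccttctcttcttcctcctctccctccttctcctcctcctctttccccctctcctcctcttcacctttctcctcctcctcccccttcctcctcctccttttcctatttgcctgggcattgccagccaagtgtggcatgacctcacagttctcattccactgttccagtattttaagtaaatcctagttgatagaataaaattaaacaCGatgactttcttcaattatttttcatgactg

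In these stretches the count of CpGs was 5 for Nlgn1, 6 for Cdh9, 4 for Robo2, 5 for Rph3a, 13 for Iglon5, 2 for Kcnk2, 3 for Gm13067 and 1 for Gm26553. Of the 8, Iglon5 came nearest to the median of the windows inside regions shorter than 1000 bp with a level under 10%. The region that holds the Nlgn1 start was at 18.2% and 18% in control and 18.4% and 19.4% in Cre. The Cdh9 region was at 14.8% and 18.6% in control and 17.8% and 17.7% in Cre. The Robo2 region was at 26.2% and 16.7% in control and 25.3% and 23.9% in Cre. Rph3a was at 24.1% and 23.8% in control and 26.0% and 29.3% in Cre, and Iglon5 at 24.4% and 25.4% in control and 25.8% and 33.4% in Cre. At Kcnk2 the levels were 38.2% and 38.7% in control and 43.6% and 40.8% in Cre, so the groups did not overlap. The groups overlapped at Cdh9 and Robo2. They did not at Rph3a, Iglon5 and Nlgn1, and at Nlgn1 they lay 0.783 points apart. At Gm13067 and Gm26553, described later, both Cre libraries lay below both controls. Over all regions, 15.9% had both Cre libraries above both controls and 16.8% below both. Since the examples were picked with their values known, their number is no result about such genes.

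Levels inside the set were skewed toward the upper bound that defined it. The median was 38.7%, with quartiles of 29.3% and 45.3%. Regions at 45% to under 50% made up 26.7% of the set, and those at 10% to under 15% made up 4.09%. Over all intergenic autosomal regions of this length the counts rise without a gap across the bound, from 4360 regions at 40% to 50% to 8424 at 50% to 60%, so the upper bound cuts a continuous tail. The 2 members closest to it, near Smad5 and Stc1, had means of 49.9953% and 49.9976%, and the 2 regions just above it, near Ripor1 and Dusp26, both had 50.0004%. At the lower bound the members near Ntmt1 and Trp53rka had means of 10.015% and 10.0118%, and the regions just below, near Tbx18 and Gmppa, had 9.99104% and 9.94342%.

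The 5 lowest members lay beside unmethylated regions. They were those near Ntmt1 and Trp53rka and 3 more, of which the one near Barhl2 was at 7.06% and 12.1% in control and 9.89% and 11.1% in Cre. The lowest near Ppara, which opens the longest run on chromosome 15, was at 11.4% and 7.95% in control and 11.7% and 9.09% in Cre. The region 501 bp from Atn1 was at 16.1% and 8.44% in control and 5.66% and 10% in Cre. In all 5 the groups overlapped.

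The low regions were short. Their median length was 1578 bp (quartiles 1278 and 2020 bp), against 2749 bp for intergenic regions at 50% or more. Level rose with length inside the set, with a rank correlation of 0.293 over 9540 regions, which share the same 4 libraries. Regions of 1000 to under 1500 bp averaged 33.0% and 33.5% in control and 33.3% and 33.4% in Cre. Regions of the longest class, 3 to 5 kb, averaged 41.1% and 41.7% in control and 41.7% and 42.2% in Cre.

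The regions around the set fell into distinct arrangements. Of the 9540, 3469 (36.4%) adjoined a region under 10% on at least 1 side and are called shores here, whereas 1.65% of intergenic regions at 50% or more had such a neighbour. Another 4221 (44.2%) had both neighbours at 50% or more and are called isolated dips. The remaining 1850 (19.4%) had other neighbours, mostly intermediate. Shores lay at a median of 311 bp from the nearest gene start and isolated dips at 17587 bp. Thus the same rule gathered flanks of promoters and sites far from any start. For 1496 shores (43.1%) the neighbour under 10% carried a gene name in the deposited table.

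**Figure D1:**
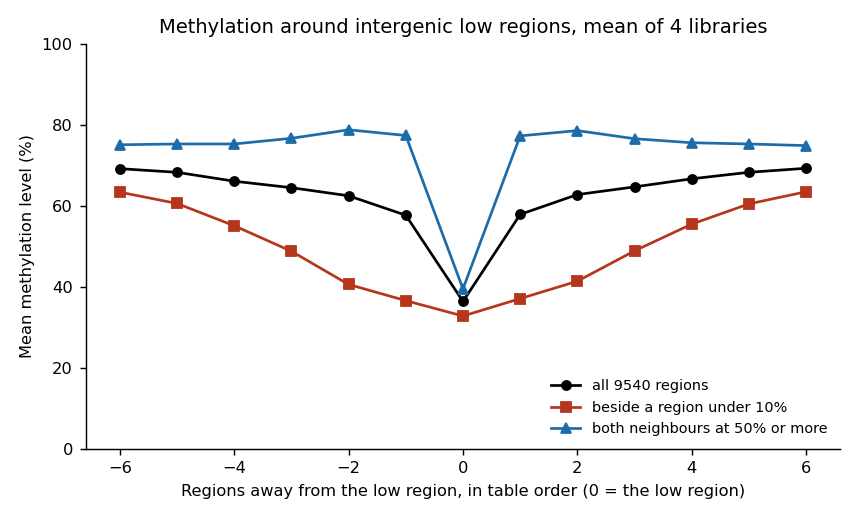
Mean methylation level (y axis, %) at the low intergenic region (position 0 on the x axis) and at the 6 regions before and after it in table order, as the mean of 4 libraries, for all 9540 regions (black), those beside a region under 10% (red) and those with both neighbours at 50% or more (blue). Isolated dips stand alone at 39.5% between neighbours above 77%, while regions beside an unmethylated neighbour sit in a broad trough that still averages 63.5% at the sixth region after.

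Isolated dips were narrow. Their level averaged 38.9% and 39.9% in control and 39.5% and 39.7% in Cre, and the next region averaged 77.4% before and 77.3% after the dip. Shores averaged 32.7% and 32.8% in control and 32.8% and 32.8% in Cre. Beside shores the mean rose region by region, from 36.6% at the first region before to 63.4% at the sixth. The mean at the first region mixes sides under 10% with methylated sides, and the median there was 8.26% before and 8.72% after the shore. Over the whole set a region lay below the mean of its neighbours, counting only neighbours outside the set, by 23.9 and 23.6 points in control and by 23.7 and 23.5 points in Cre. In part that gap follows from how the regions were chosen. The gap differed by 0.135 points between the groups (exact permutation test over 6 arrangements of the libraries, two-sided, p = 0.667). The smallest p such a test can give with 2 libraries against 2 is 0.333.

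Low regions were also closer to genes than methylated ones. A RefSeq gene start lay inside 9.66% of them, against 1.95% of intergenic regions at 50% or more. Within 1000 bp the shares were 33.3% and 5.37%, and within 5000 bp they were 47.3% and 15.4%. The median distance to the nearest start was 6125 bp, against 28534 bp. Protein-coding starts were at a median of 18062 bp, against 75769 bp. In all 35.3% of the low regions overlapped a RefSeq gene, so that "intergenic" holds for the deposited annotation and not for RefSeq. Long noncoding RNA genes were overlapped by 21% of the low regions (14.6% of methylated ones), and protein-coding genes by 14.1% (5.83%). No p is given for these shares, since neighbouring regions are not independent.

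**Figure D2:**
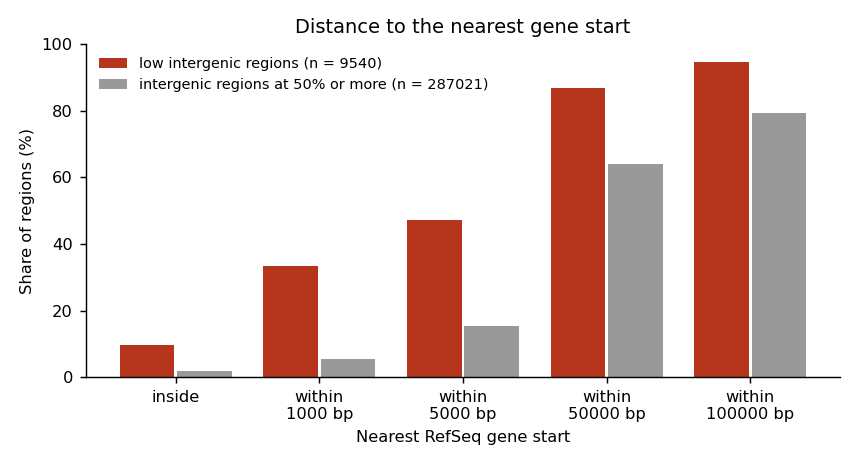
Share of regions (y axis, %) whose nearest RefSeq gene start lies inside the region or within the distance on the x axis, for the 9540 low intergenic regions (red) and for 287021 intergenic regions at 50% or more (grey). The red bars exceed the grey at every distance, by the largest ratio within 1000 bp (33.3% against 5.37%) and by the smallest within 100000 bp (94.7% against 79.2%).

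Genes for transfer RNA, which RNA polymerase III transcribes from promoters inside the gene, stood out by their number. Of the low regions 55 (0.577%) contained or touched one, against 69 (0.0240%) of the far larger set of methylated intergenic regions. Within 2000 bp of a tRNA gene lay 123 low regions (1.29%), against 0.0885% of methylated ones. Those 123 averaged 32.7% and 31.9% in control and 32.2% and 32.7% in Cre, so the groups overlapped. On chromosome 13, a run of 4 adjoining low regions (chr13:21932831-21938757) overlapped 3 tRNA genes, and another run of 4 (chr13:23498832-23505374) overlapped 4. Genes for small nuclear and small nucleolar RNA were overlapped by 0 low regions.

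Most low regions were single. Runs of 2 or more adjoining members, with no other region between, held 1590 of them (16.7%) in 742 runs, and 7950 stood alone. The longest runs had 8 members. One, on chr15:85680041-85692816, lay 13787 bp from the let-7 gene Mirlet7c-2 in the interval whose nearest protein-coding start is that of Ppara, and it averaged 25.9% and 30.1% in control and 29.3% and 30.8% in Cre. The other, on chr3:88216560-88234104, began 874 bp from Mir9-1 and overlapped the noncoding gene Gm3764. It averaged 34.5% and 29.8% in control and 31.4% and 28.9% in Cre. The next longest, 6 members on chr9:91393260-91404792, lay 24288 bp from the start of Zic4, a zinc finger factor of the developing hindbrain and midline. Its levels were 32.8% and 29.9% in control and 30.5% and 28.6% in Cre. In each of these runs of 8, 8 and 6 the groups overlapped.

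Genes of brain microRNAs were therefore looked at after these runs had been seen. MicroRNAs are short RNAs that repress messenger RNAs which pair with their seed, bases 2 to 8. miR-9 is abundant in neural progenitors and neurons, miR-137 and let-7 are abundant in neurons, and miR-124 marks neurons. The mature strands are shown from RefSeq, 5′ to 3′, with the seed in capitals, because groups of low regions surrounded their genes.
mmu-miR-9-5p, GRCm38.p6 chr3:88215613-88215635, plus strand: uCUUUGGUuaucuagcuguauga
mmu-miR-137-3p, GRCm38.p6 chr3:118433901-118433923, plus strand: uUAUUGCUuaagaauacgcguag
mmu-let-7b-5p, GRCm38.p6 chr15:85707325-85707346, plus strand: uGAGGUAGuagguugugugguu

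The sequence of mature miR-9 is encoded by 3 genes, and low regions lay near each of them. Within 20000 bp there were 13 around Mir9-1, 12 around Mir9-3 and 2 around Mir9-2. Around Mir9-1 the 13 averaged 32.7% and 27.2% in control and 29.6% and 27.4% in Cre, with single regions between 12.6% and 48.5%. Around Mir9-3 the 12 averaged 27.3% and 28.4% in control and 29.1% and 28.7% in Cre. Both Cre libraries lay above both controls in the mean around Mir9-3, by 1.08 points between the group means, and the groups overlapped around Mir9-1. Of the 12 around Mir9-3, 9 had the higher mean in Cre. Both Cre libraries lay above both controls at 1 (15.9% of all regions) and below both at 2 (16.8% of all regions). The regions 490 bp and 1875 bp from Mir9-3 differed by -6.53 points, with overlap, and by -6.14 points, without overlap. Mirlet7b had 10 low regions within 20000 bp, at 33.0% and 38.6% in control and 36.0% and 36.0% in Cre. Mir137 had 4, of which the nearest, chr3:118431270-118433476, was at 9.02% and 11% in control and 15.5% and 12.8% in Cre (limma adjusted p = 0.937).

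The 3 genes of miR-124 gave differing pictures. The region 784 bp from Mir124a-3, chr2:180894891-180896572, was at 23.0% and 19.6% in control and 33.6% and 32.7% in Cre. Its groups did not overlap and differed by 11.9 points (limma unadjusted p = 0.0108, adjusted p = 0.937). Of the 2 low regions within 20000 bp of Mir124a-3, 1 had the higher mean in Cre. Near Mir124a-1 the nearest region ran from 25.9% to 47.9% across libraries, with a group difference (Cre minus control) of -7.47 points and overlap. The one nearest to Mir124a-2 was at 35.6% and 32.3% in control and 28.3% and 31.6% in Cre, or -4.02 points without overlap. Both Cre libraries lay above both controls in 15.9% of all regions and below both in 16.8%. Over all microRNA genes, 71 low regions (0.744%) lay within 2000 bp of one, against 0.126% of methylated intergenic regions. Of these 71, 28 had the higher mean in the Cre group, where 49.2% of all regions did.

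The mean over all low regions did not separate the groups. It was 36.0% and 36.6% in control and 36.4% and 36.5% in Cre. The control libraries spanned both Cre libraries. The group means were 36.3% ± 0.419 and 36.5% ± 0.0596 (SD, n = 2 each), a difference of 0.160 points (exact permutation test, two-sided, p = 1). Methylated intergenic regions differed by -0.0416 points, and low regions inside genes, chosen by the same length and level, by 0.306 points, from 34.4% and 35.0% in control to 35.0% and 35.0% in Cre. Low intergenic regions thus exceeded the methylated ones by 0.201 points in that difference (exact permutation test, two-sided, p = 0.667). Set against low regions in genes, the intergenic ones were 1.66 and 1.61 points higher in control and 1.43 and 1.55 points higher in Cre. That contrast of -0.147 points had the smallest p the test allows (exact permutation test, two-sided, p = 0.333), which is not below 0.05.

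**Figure D3:**
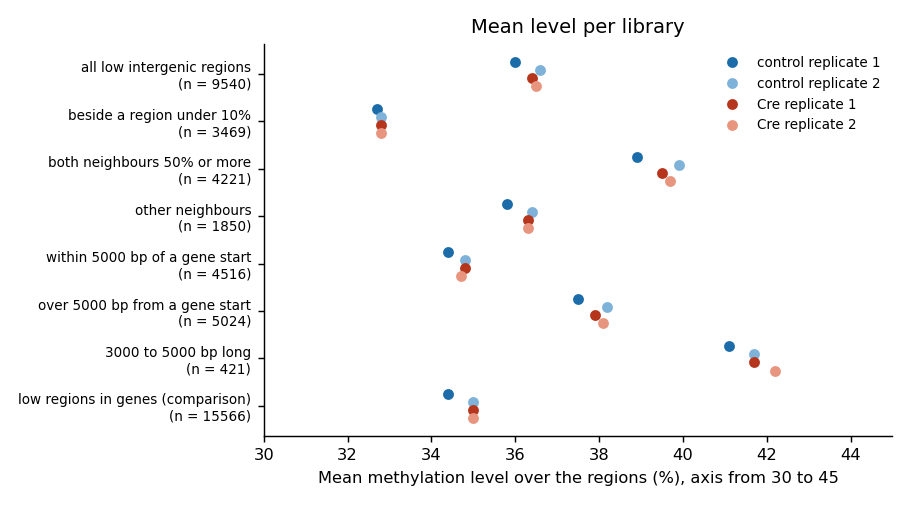
Mean methylation level (x axis, %, drawn from 30 to 45) in each of the 4 libraries for the low intergenic regions, for subsets of them and, in the last row, for low regions in genes; each point is 1 library. In the row of all 9540 regions the control libraries, at 36.0% and 36.6%, lie on both sides of the Cre libraries, at 36.4% and 36.5%, while regions beside a region under 10% stay between 32.7% and 32.8%.

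Control replicate 1 was the lowest library in most subsets. At isolated dips it was at 38.9%, against 39.5% to 39.9% in the others, and in regions over 5000 bp from a gene start at 37.5%, against 37.9% to 38.2%. Shores varied least, from 32.7% to 32.8%, and their groups differed by 0.0777 points (exact permutation test, two-sided, p = 0.333). Control replicate 1 also had the lowest value in 29.5% of single regions, against 21.6% for control replicate 2, 25.9% for Cre replicate 1 and 23.0% for Cre replicate 2. Without control replicate 1 the difference over the set turned from 0.160 to -0.136 points, so the direction rests on that library.

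By chromosome, low regions made up between 2.38% (chromosome 16) and 4.72% (chromosome 11) of intergenic regions of this length. Mean group differences per chromosome ran from -0.299 points on chromosome 8 to 0.442 points on chromosome 19, and 18 of 19 were above 0. The chromosomes share the same 4 libraries, so they are not independent measurements.

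No single low region passed the group comparison. In limma, fitted to levels on a logit scale and adjusted over 849014 regions by the Benjamini-Hochberg method, 0 of 9540 had an adjusted p below 0.05 (0% of all regions did), and the smallest was 0.937. At an unadjusted p below 0.05 there were 208 (2.18%), against 4.6% of all regions. That order depends on the scale: with limma on the percent values, 755 low regions (7.91%) had an unadjusted p below 0.05, against 4.96% of all regions. Of the 208, 116 were higher in Cre and 92 lower. On the same logit scale, 39068 of all regions had a limma unadjusted p below 0.05. Of these, 19130 were higher in Cre (2.25% of all regions) and 19938 lower (2.35% of all regions). With 2 libraries per group, a region that misses the threshold is not thereby shown to be equal in both groups.

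Counts of direction were near those of all regions. The Cre mean was higher in 4880 low regions (51.2%), against 49.2% of all regions. Both Cre libraries lay above both controls in 1630 (17.1%), against 15.9%, and below both in 1500 (15.7%), against 16.8%. Group means were 10 points or more apart in 198 low regions (2.08%), against 0.875% of all regions. Such gaps were more frequent still between replicates. The 2 control libraries differed by 10 points or more in 775 low regions and the 2 Cre libraries in 664, though a difference of 2 single libraries is expected to spread wider than a difference of 2 means. The median absolute group difference was 2.30 points, and the median absolute difference between replicates was 3.26 points in control and 3.13 points in Cre. Across the 9540 regions, pairs of libraries correlated at r of 0.853 to 0.890, given as a description.

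**Figure D4:**
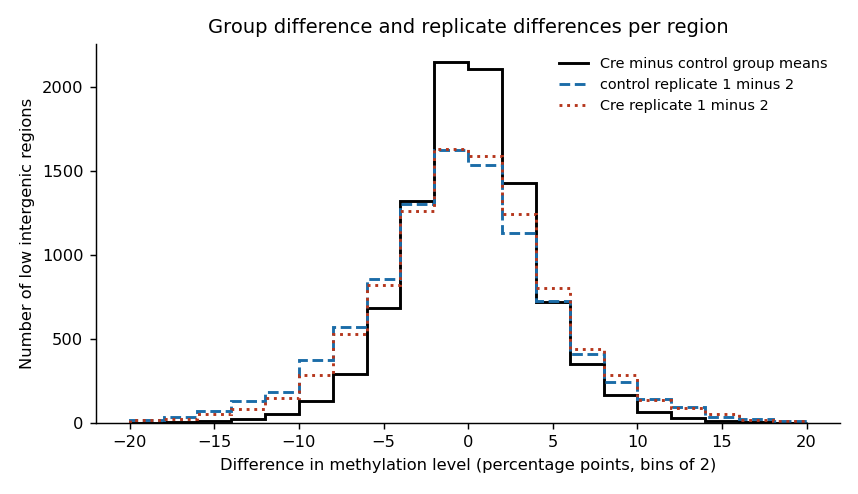
Number of low intergenic regions (y axis) by difference in methylation level (x axis, percentage points, bins of 2) for the Cre mean minus the control mean (black), control replicate 1 minus 2 (blue, dashed) and Cre replicate 1 minus 2 (red, dotted); differences beyond 20 points are not drawn. All 3 distributions centre near 0, and the 2 replicate differences are wider than the group difference, with medians in size of 3.26 and 3.13 points against 2.30.

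Single regions are named next by rule: the 5 smallest p in each direction, and the 5 largest differences in each direction among regions whose groups do not overlap. Their p-values and differences chose them, so the values are a description, and all had a limma adjusted p of 0.937. Among regions higher in Cre, chr18:24070706-24071755, whose nearest protein-coding start is that of Ino80c, a chromatin remodeller subunit, had the smallest p of the set (limma unadjusted p = 0.00243). It was at 33.6% and 34.3% in control and 52.2% and 54.8% in Cre. A region 16837 bp from the start of Stmn1, which destabilises microtubules, chr4:134450321-134451483, was at 14.6% and 15.6% in control and 28.7% and 27.4% in Cre. At 35437 bp from the homeobox gene Uncx, chr5:139579335-139580554 was at 27.0% and 28.9% in control and 44.5% and 43.3% in Cre. Replicates lay close together at these sites, and the groups were 13.0 to 19.5 points apart.

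Further regions with higher levels in Cre were near Mfge8, a bridging protein of phagocytosis, and near Id3, an inhibitor of helix-loop-helix factors. The first, chr7:79193722-79194875, was at 33.3% and 33.7% in control and 48.7% and 50.5% in Cre. The second, chr4:136104405-136105498, was at 21.7% and 30.9% in control and 42.2% and 44.4% in Cre. Both stood between methylated neighbours (81.1% and 80.2%, and 89.5% and 81.4%), and so were isolated dips. Near Habp2, chr19:56230496-56232342 was at 39.7% and 36.3% in control and 52.9% and 58.1% in Cre. Near Pou3f1, a CA1 transcription factor 298556 bp away, chr4:124357962-124359090 ranged from 12.3% to 27.0% in control and from 32.3% to 47.3% in Cre.

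The largest difference came from an erratic locus. At chr6:47664023-47667204 the level was 22.2% and 27.2% in control and 56.2% and 85.2% in Cre, 46.0 points apart, with the Cre libraries themselves far apart. On the side of lower coordinates, past a single methylated region, chr6:47659783-47661870 differed the other way, at 80% and 28.8% in control and 37.2% and 11.1% in Cre, or -30.2 points with overlapping groups. Another low region there, chr6:47673023-47675013, was at 35.2% and 34.8% in control and 50.3% and 51.7% in Cre. RefSeq lists a row of predicted genes and the small RNA gene Rn4.5s in and beside this interval, and Ezh2 starts 68753 bp from the region with the largest difference. The RNA of Rn4.5s is encoded by tandem repeats in mice, and values of near-identical copies are uncertain; the part of repeats in these values was not tested.

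Among regions lower in Cre without overlap between the groups, the largest difference was at chr3:96348469-96352559, the region that holds the Gm26553 start printed above. It was at 35.6% and 18.2% in control and 2.54% and 5.16% in Cre, or -23.0 points, with the control libraries far apart. It contains 1 tRNA gene, and 10 tRNA and 3 small nuclear RNA genes lie within 50000 bp; such genes often have near-identical copies, and their part in the value was not tested. The Gm13067 region, chr4:150028801-150029907, was at 24.0% and 26.5% in control and 15% and 14.4% in Cre, while the unmethylated region beside it was at 0.526% to 1.30% in all 4 libraries. Near Tnrc6a, a gene of microRNA silencing, chr7:123063923-123066349 was at 49.0% and 49.6% in control and 33.8% and 36.3% in Cre. Its next neighbour, outside the set, was at 72.2% and 72.4% in control and 67.9% and 68.3% in Cre.

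Another region lower in Cre lay upstream of the noncoding host gene of Mir9-2. Next to that host, C130071C03Rik, and over 20000 bp from Mir9-2 itself, chr13:83716454-83718073 was at 34.3% and 32.2% in control and 19.9% and 13.7% in Cre, a difference of -16.5 points. The adjoining low region, chr13:83718074-83719945, was at 7.53% and 16.5% in control and 18.1% and 12.6% in Cre, and its groups overlapped. Regions near Srgap3, Hspb3 and Cnot8 were also among the largest decreases without overlap. Without 1 library the difference ran from -23.9 to -12.1 points at Srgap3, from -27.1 to -6.39 points at Hspb3 and from -28.2 to -4.13 points at Cnot8, the smallest in size without Cre replicate 1, control replicate 1 and control replicate 2. At Hspb3 the control libraries were at 65.9% and 45.3% and the Cre libraries at 33.0% and 44.7%.

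**Figure D5:**
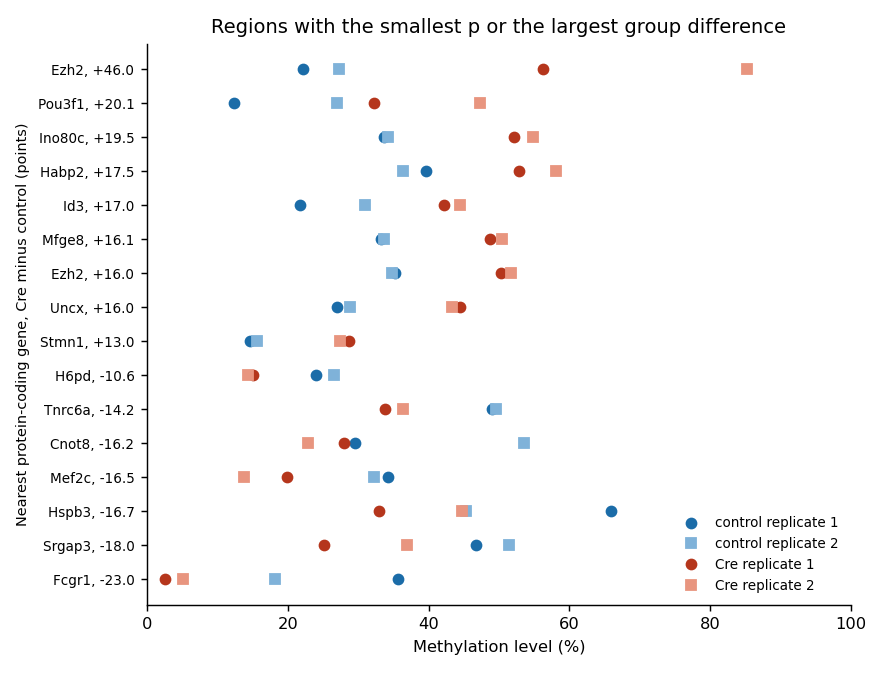
Methylation level (x axis, %) in each of the 4 libraries for low intergenic regions with the smallest p or the largest group difference; each row is 1 region, named by its nearest protein-coding gene and its group difference in points, and each point is 1 library (blue, control; red, Cre). The pairs of replicates are tight at Ino80c, Stmn1, Mfge8, Uncx and Tnrc6a and far apart at the upper Ezh2 row, Cnot8 and Hspb3.

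The low regions were next grouped by the nearest protein-coding start within 100000 bp, using lists of cell type and pathway genes. Near any protein-coding gene, 7783 of 170127 intergenic regions of this length (4.57%) were low. The share was 8.76% near genes of the methylation machinery, 7.66% near oligodendrocyte genes, 7.58% near forebrain neuron transcription factors, 7.47% near microglia genes, 7.32% near interneuron genes, 6.47% near CA1 pyramidal genes and 6.21% near activity-induced genes. It was 5.62% near astrocyte genes, 5.29% near genes of other tissues, 4.92% near glutamate receptor and synapse genes, 3.46% near endothelial genes and 3.43% near markers of the dentate gyrus and CA3. Low regions thus lay near genes of each cell type for which a list was made, in numbers of 12 to 58 a list, and the level of a region does not say in which cells it is unmethylated. A few genes held many of a list's regions. Since a list holds few genes, its share describes those genes only.

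CA1 pyramidal genes had 26 low regions, of which 17 were higher in Cre, with a median difference of 2.78 points against 0.0668 points near any protein-coding gene. Both Cre libraries lay above both controls in 11 (15.9% of all regions did) and below both in 4 (16.8% of all regions). Their mean was 30.3% and 34.0% in control and 34.8% and 35.6% in Cre. Neurod2, a neuronal helix-loop-helix factor, supplied 10 of the 26, in 20 intergenic regions. These 10 averaged 26.5% and 30.6% in control and 31.8% and 32.9% in Cre, and 5 had both Cre libraries above both controls, as did 15.9% of all regions. Among them, chr11:98334736-98336349 was at 26.8% and 29.2% in control and 32.5% and 44.9% in Cre, while chr11:98321404-98323326 was at 9.47% and 9.99% in control and 9.82% and 13.3% in Cre.

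Among the other CA1 genes, Itpka, a kinase of dendritic spines, had 1 low region, at 38.4% and 35.9% in control and 44.0% and 44.8% in Cre. Neurod6, a relative of Neurod2, went the other way at 2 of its 3 regions, with group differences of -2.84 and -3.82 points and no overlap, where 16.8% of all regions had both Cre libraries below both controls. None of these had a limma adjusted p below 0.937.

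Interneuron genes had 29 low regions, 22 of them higher in Cre, with a median difference of 1.65 points. Dlx2, a homeobox gene of GABAergic precursors, supplied 8, at a mean of 34.2% and 37.2% in control and 37.5% and 34.3% in Cre. Nkx2-1, which specifies interneurons of the medial ganglionic eminence, supplied 7, at 25.2% and 27.7% in control and 24.0% and 27.5% in Cre. Sp9, with 3 regions, was at 24.7% and 23.3% in control and 32.9% and 25.9% in Cre. The groups overlapped at Dlx2 and Nkx2-1 and did not at Sp9. Over the whole list the means were 31.2% and 32.2% in control and 33.1% and 31.8% in Cre, which overlap.

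Forebrain neuron transcription factors had 58 low regions, 31 higher and 27 lower in Cre, at a median level of 31.5%, below the 38.2% near any protein-coding gene. Lhx2, a patterning gene of the hippocampus, had 4, all with the higher mean in Cre, averaging 35.0% and 35.0% in control and 40.8% and 39.8% in Cre. At each of the 4 single regions, however, a control library overlapped the Cre range. Fezf2 had 3 low regions, all with the lower mean in Cre, averaging 30.7% and 28.2% in control and 27.1% and 26.9% in Cre. At each of the 3 single regions the groups overlapped. Mef2c, an activity-regulated factor, is the nearest coding gene of the region beside C130071C03Rik, but its start lies 142847 bp away, beyond the limit used for the lists.

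Activity-induced genes had 46 low regions, of which 23 were higher and 23 lower in Cre, with a median difference of 0.0876 points. Fos, the classic immediate early gene, was the nearest coding gene of 5, at a mean of 37.1% and 40.7% in control and 42.4% and 37.8% in Cre. One of them, chr12:85487372-85489710, adjoined an unmethylated region at 1.33% and was at 15.8% and 25.3% in control and 24.1% and 19.2% in Cre. Arc, whose product acts at synapses, had a low region 162 bp from its start, at 27.9% and 26.2% in control and 27.7% and 24.2% in Cre. A second, 3933 bp from the Arc start, was at 47.2% and 46.6% in control and 52.7% and 51.1% in Cre (limma adjusted p = 0.937). There both Cre libraries lay above both controls, as in 15.9% of all regions. The region 1675 bp from the Npas4 start, chr19:4991646-4993714, was at 20.8% and 18.9% in control and 22.5% and 21.8% in Cre. The orphan nuclear receptor gene Nr4a1 had 6, averaging 33.3% and 31.2% in control and 30% and 31.4% in Cre. None of the 40 intergenic regions nearest to Bdnf, the neurotrophin gene, was in the set, and neither was any of the 3 nearest to Camk2a. The set holds 3.21% of all intergenic regions of this length, so such counts say little about these genes.

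Genes of the methylation machinery had 29 low regions, 12 higher and 17 lower in Cre, with a median difference of -0.302 points. Tet2 itself had a low region at its start, chr3:133545021-133547297, beside a region at 1.21%. It was at 20.3% and 17.9% in control and 20.8% and 15.6% in Cre (limma adjusted p = 0.981), so the groups overlapped. A second, 69302 bp from the start, was at 37.4% and 37.5% in control and 40% and 40.6% in Cre. Another, 329841 bp away, was at 48.9% and 48.5% in control and 49.3% and 50.2% in Cre. Dnmt3a, the de novo methyltransferase, had 1, at 34.1% and 32.4% in control and 36.5% and 36.1% in Cre (limma adjusted p = 0.942). Cxxc4, which neighbours Tet2 and encodes a TET2-binding protein, had 6, averaging 35.1% and 36.7% in control and 35.7% and 37.7% in Cre. For Tet1 and Tet3, 0 of the 1 and 0 of the 11 nearest intergenic regions were low, where 3.21% of all intergenic regions of this length were.

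Glial and vascular lists held 12 to 19 low regions each. Astrocyte genes averaged 34.4% and 34.6% in control and 35.7% and 35.1% in Cre, without overlap between these means. Of their 19 low regions, 10 were higher and 9 lower in Cre, with a median difference of 0.154 points. Both Cre libraries lay above both controls at 3 (15.9% of all regions) and below both at 3 (16.8% of all regions). Oligodendrocyte genes averaged 33.6% and 35.1% in control and 36.3% and 34.8% in Cre, with overlap. Olig2, the oligodendrocyte lineage factor, had 5, averaging 31.1% and 28.9% in control and 32.0% and 29.6% in Cre. Hes5, a Notch target of astrocyte precursors, had 5, at 30% and 33.7% in control and 32.7% and 37.6% in Cre. C1qa, a complement gene of microglia, also had 5, of which 1 was higher in Cre, at 33.0% and 36.4% in control and 31.8% and 34.2% in Cre. Over the 13 microglial regions, 5 were higher and 8 lower in Cre, while their mean was 33.8% and 35.2% in control and 35.2% and 35.6% in Cre. The single region near Ctss, a lysosomal protease gene, differed by 11.4 points in the other direction from C1qa. Of the 12 endothelial regions, 5 were higher and 7 lower in Cre, with means of 32.3% and 32.5% in control and 33.1% and 32.2% in Cre. Foxf2, a factor of brain vessels, had 4, all with the higher mean in Cre, and Cdh5, the vascular cadherin gene, had 4, of which 0 did. Groups overlapped at Olig2, Hes5 and C1qa.

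Synaptic genes supplied 18 low regions, 11 of them with the higher mean in Cre, with a median difference of 1.03 points. Their lowest members lay at gene starts. The one 522 bp from Grm5, a metabotropic glutamate receptor, was at 14.7% and 11.1% in control and 9.84% and 8.14% in Cre. The one 1138 bp from Camk2b, a kinase of synaptic plasticity, was at 12.1% and 15.1% in control and 18.5% and 15.5% in Cre. The Grm5 region was lower and the Camk2b region higher in Cre, each without overlap between groups (limma adjusted p = 0.937 for both). Markers of the dentate gyrus and CA3 had 13, with means of 42.1% and 41.6% in control and 40.1% and 40.5% in Cre, without overlap between these means. Of the 13, 6 were higher and 7 lower in Cre, with a median difference of -0.779 points. Both Cre libraries lay above both controls at 2 (15.9% of all regions) and below both at 4 (16.8% of all regions). The lowest of the 13, near Calb2 and Prkcd, were at 28.6% to 34.0% and at 30.9% to 36.4% over the 4 libraries.

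Some developmental regulators also had several low regions nearby. Genes of other tissues as a list had 12 low regions near 4 of 32 genes. Hand2, a heart and limb factor, had 10 within 100000 bp, at a median level of 16.0% and with means of 20.9% and 19.9% in control and 21.3% and 18.8% in Cre. Nkx2-5, the cardiac homeobox gene, had 6 of its 15 intergenic regions in the set, at 20.5% and 21.7% in control and 20.7% and 23.4% in Cre. Nr2f2 had 12, at 29.6% and 31.4% in control and 34.4% and 30.1% in Cre, and Pax2 had 11, at 31.7% and 32.3% in control and 29.4% and 34.2% in Cre. Hand2, Nr2f2 and Pax2 were picked after their counts were seen. The groups overlapped at all 4 genes.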

How the data were processed

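Whole-genome bisulfite libraries of CA1, 2 per group, were the source of all values. The authors deposited a table of regions with a percent methylation level per library and no read counts. The submitters' processing notes name the build mm10 and the tools Bismark 0.19.0, edgeR, Trim Galore 0.4.5 and FastQC 0.11.5. The roles of these tools, the drawing of regions and any coverage minimum were not given in the sources used here. Uneven coverage would add scatter that the levels alone do not show.

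Members were selected by annotation, length and mean level, and 158 regions without all values were left out. Levels as fractions were transformed to log2((level + 0.01)/(1 - level + 0.01)) and tested with limma 3.58.1 in R 4.3.3 over 849014 regions with Benjamini-Hochberg adjustment (threshold 0.05). Means were tested by exact two-sided permutation over 6 arrangements. Tables were handled in Python 3.11.15 with pandas 2.3.3 and numpy 2.4.6. The fit was tested on simulated data for 849014 regions, in which 200 low regions were raised by 10, 20 or 40 points. At unadjusted p below 0.05, 65.5%, 89% and 99% of them were found, and 0% after adjustment. With so few changed regions the design could hardly give an adjusted call. Larger numbers of changed regions were not simulated.

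Positions are those of the deposited table, and genes come from RefSeq on GRCm38.p6, the same assembly as mm10, with 42772 gene starts. Only genes whose strand was given by RefSeq's promoter table or by the deposited table (30222) entered the nearest-start distances, and predicted genes did not serve as the nearest named gene. Lists used a limit of 100000 bp, and nearness does not show regulation. CpG content of whole regions was not analysed here.

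Named regions were the 5 smallest p and the 5 largest differences without overlap in each direction, the 3 longest runs, the 5 lowest levels, the 2 lowest per gene list, those nearest to 9 genes (Tet1, Tet2, Tet3, Dnmt3a, Bdnf, Fos, Arc, Npas4, Camk2a), and those at the bounds; some of these are not reported here. The members and lists were chosen with earlier results of these data known. MicroRNA, tRNA and predicted genes, promoter examples, and genes with many members were picked after their values were seen. Alternatives covered the scale, offset, prior, replicate block, left-out libraries, tested regions and the bounds of the rule.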

Additional observations from a re-analysis of the deposited data

How the results depend on the processing

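No low region passed the threshold under any alternative fit, and the smallest adjusted p in limma ranged from 0.507 (autosomal regions of 1000 to 5000 bp alone) to 0.954. At unadjusted p below 0.05, 208 passed (2.18%, against 4.6% of all regions). It was 755 on the percent scale (7.91% against 4.96%), 320 with an offset of 0.05 (3.35% against 4.5%), 314 with a trended and robust prior (3.29% against 4.75%), and 122 (1.28% against 3.45%) to 228 (2.39% against 4.95%) on omitting 1 library. Under the replicate block, 129 passed (1.35% against 4.01%), 0 after adjustment, and the mean difference stayed at 0.16 points. Deviations of same-numbered libraries correlated at -0.000597 over the low regions, so no shared deviation was seen per region. That value cannot tell whether the numbers mark a shared batch.

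The mean difference ran from -0.136 (without control replicate 1) to 0.456 points (without control replicate 2). The share higher in Cre ran from 49.3% to 54.0% over the same omissions, and was 49.8% without Cre replicate 2. Against flanks 2 regions out, the dip was -27.3 points. Leaving out regions 10 points or more apart, an alternative chosen after seeing the data, gave 0.14 points. The cause of these changes was not tested.

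Among 540 values of 54 named regions, 21 reversed, in 16 regions, and each came from leaving out 1 library. Their ranges over the 4 omissions, in points, were as follows. The region near Trp53rka ran from -1.17 to 0.527, Tet2 from -3.5 to 1.7 (0.307 without control replicate 1), C1qa from -6.28 to 1.34, and Barhl2 from -1.56 to 3.45. Nkx2-1 ran from -2.86 to 4.15 (-0.412 without Cre replicate 2). The regions near Fos ran from -4.2 to 5.17 (-4.05 without control replicate 1) and from -3.66 to 5.88 (-1.34 without Cre replicate 1). Id4 ran from -3.99 to 1.08, Prkcd from -1.48 to 4.0, and Stc1 from -1.36 to 6.49. A region 185201 bp from the Arc start ran from -0.0709 to 8.75, and the one 162 bp from it from -2.81 to 0.677. Ppara ran from -1.01 to 2.46 (-0.593 without Cre replicate 1), and Nr4a1 from -0.72 to 3.24. The regions near Olig2 ran from -0.335 to 1.97 and from -0.298 to 3.42.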
